A study of Mus musculus with 8 samples.

Results

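The genes described here are the HOXA-MEIS1-PBX3 group: 5 homeobox genes of the HOXA cluster (Hoxa5, Hoxa6, Hoxa7, Hoxa9 and Hoxa10), the cofactor genes Meis1 and Pbx3, and the transcriptional regulators Eya1 and Mef2c. Members were taken by gene symbol in the annotation of the array's rows. Of the 9 members, 7 have a row, among 19505 genes with a symbol. Hoxa7 and Hoxa9 are not paired with a row in that annotation, so they were not analysed here, and no row was assigned to them by its position.

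HOX proteins are homeodomain transcription factors. PBX and MEIS proteins belong to the TALE class of homeodomain proteins, bind DNA beside HOX proteins and sharpen which sites these bind. In leukaemia with a rearranged MLL gene, the fusion protein keeps HOXA genes and Meis1 switched on, genes that normally fall silent as myeloid progenitors mature. Pbx3, Eya1 and Mef2c are known as further targets of the fusion in this leukaemia. EYA1 is a phosphatase and a coactivator of homeodomain proteins of the sine oculis family. MEF2C is a MADS-box factor of muscle, lymphoid and myeloid cells.

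Gene expression was measured on 8 microarrays, 3 from Pik3ca-/- cells (KO) and 5 from WT cells. All samples were MLLAF9 leukaemia stem cells, taken as GFP+ granulocyte-macrophage progenitors (GMPs) by sorting the bone marrow of mice that had received transplanted cells, so the fusion is shared by both groups. The deleted gene encodes p110-alpha, a catalytic subunit of PI3K. The labels give no strain, age or treatment, no method of deletion, and do not name the mouse behind each array, so p-values cover only the spread between these samples. Values are the deposited log2 values, whose log base was read from their range of 1.89 to 18.6, and each array's median row lay between 5.26 and 5.51.

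The labelled cell type was checked first. All 12 GMP and primary granule genes, among them Mpo, Elane and Kit, were above the median row on all 8 arrays, with a mean level of 13.95 to 14.30 in KO and 14.13 to 14.50 in WT. Of 7 B cell genes with a row, 3 (Cd79a, Ms4a1 and Pax5) were below it on all 8 and 2 were above it on all 8, Cd79b at 7.50 to 9.21 and Vpreb1 at 5.56 to 7.93. Of 8 T and NK cell genes, 4 (Cd3e, Cd3g, Cd8a and Ncr1) were below it on all 8 and Cd4 was above it on all 8, at 6.35 to 7.72. Of 10 maturing neutrophil genes, 9 were above it on all 8, as were 8 of 9 monocyte and macrophage genes. These lists therefore do not tell GMPs from maturing myeloid cells. Among the GMP genes, Cd34 was only 5.63 on KO array 1, where the median row was 5.43. WT array 3 stood apart, with a mean correlation with the other arrays of 0.921 across genes, against 0.968 to 0.972 for the others, and 732 genes over 2 log2 units below the other WT arrays. Results are therefore also given without it. The targeted gene, Pik3ca, was 8.73, 9.31 and 9.40 in KO and 9.48, 9.57, 8.41, 9.51 and 9.58 in WT. The groups overlapped through WT array 3 alone. The difference was -0.16, with an exact permutation p of 0.661, and without that array it was -0.39, with all KO arrays below WT and an exact permutation p of 0.0286, the smallest that 35 splits allow. Without it, 5.53% of all genes had groups that did not overlap. Which exons were removed is not stated, so these probes may lie outside the deletion and do not check the genotype.

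Promoter windows are shown for the HOXA members with a row and for Meis1, the core of the group for which the table of windows has an entry. Each is the 250 bases before a RefSeq transcription start in build GRCm38.p6, on the minus strand, written 5′ to 3′. The windows lie at chr6:52204588-52204837 for Hoxa5, chr6:52208673-52208922 for Hoxa6, chr6:52240855-52241104 and chr6:52234940-52235189 for the 2 listed starts of Hoxa10, and chr11:19018970-19019219 for Meis1. Capitals mark TAAT on either strand, the core that most homeodomains recognise.
Hoxa5: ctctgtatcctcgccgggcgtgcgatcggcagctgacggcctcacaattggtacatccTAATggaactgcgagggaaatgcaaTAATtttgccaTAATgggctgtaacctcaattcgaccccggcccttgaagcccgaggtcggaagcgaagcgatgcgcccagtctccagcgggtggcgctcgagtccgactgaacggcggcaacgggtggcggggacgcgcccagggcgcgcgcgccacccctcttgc
Hoxa6: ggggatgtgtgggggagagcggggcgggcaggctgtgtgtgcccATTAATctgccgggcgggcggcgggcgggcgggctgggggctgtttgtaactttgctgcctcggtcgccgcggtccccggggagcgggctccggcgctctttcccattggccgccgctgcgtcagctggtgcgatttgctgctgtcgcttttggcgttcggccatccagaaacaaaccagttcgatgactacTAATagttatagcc
Hoxa10 first start: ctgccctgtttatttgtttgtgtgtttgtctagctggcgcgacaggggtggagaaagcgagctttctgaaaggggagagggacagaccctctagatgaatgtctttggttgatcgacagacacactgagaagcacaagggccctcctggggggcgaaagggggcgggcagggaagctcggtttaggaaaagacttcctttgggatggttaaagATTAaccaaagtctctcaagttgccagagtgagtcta
Hoxa10 inner start: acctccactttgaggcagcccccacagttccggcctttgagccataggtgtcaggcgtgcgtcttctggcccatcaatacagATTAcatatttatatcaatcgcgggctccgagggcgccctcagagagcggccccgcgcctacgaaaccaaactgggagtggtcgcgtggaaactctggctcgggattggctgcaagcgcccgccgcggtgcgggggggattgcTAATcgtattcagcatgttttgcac
Meis1: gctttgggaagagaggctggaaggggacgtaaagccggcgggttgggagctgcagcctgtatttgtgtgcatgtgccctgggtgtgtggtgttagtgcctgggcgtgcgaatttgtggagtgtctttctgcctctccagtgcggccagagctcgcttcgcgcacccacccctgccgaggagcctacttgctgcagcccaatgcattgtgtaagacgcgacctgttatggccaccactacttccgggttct

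RefSeq windows were found for 7 of the 9 members, with none for Pbx3 and Eya1. TAAT was present 3 times each in the windows of Hoxa5 and Hoxa6, 1 and 2 times in those of the Hoxa10 starts and 0 times in that of Meis1. It was present 0 times for Hoxa7, 2 times for Hoxa9 and 5, 6 and 1 times for the 3 starts of Mef2c, whose windows are not printed, and 54.9% of all 32851 promoter windows of this length hold it. Overlapping matches on the 2 strands were counted separately, as in the ATTAAT of Hoxa6. Further motifs searched on both strands were TGACAG, bound by MEIS proteins, TGATNNAT, bound by HOX-PBX pairs, and the MEF2 box. They occur in 15.9%, 7.68% and 0.508% of all windows. These letters are not in the windows of the 7 members.

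No member passed the KO against WT test. All 7 members with a row were above the median row on all 8 arrays, so each passed the filter on dim rows, and 0 of 7 had an adjusted p under 0.05 in limma, each at an adjusted p of 0.998. Over all 9920 genes tested, 0 passed, which is 0% of the background, and 2.84% had an unadjusted p under 0.05, against 0 of the 7 members. The members' median difference was 0.03, against 0.04 over all genes tested, with 5 members above 0 and 2 below. KO and WT arrays overlapped for all 7, where 3.09% of all genes had groups that did not overlap. Because these are sorted populations measured in bulk, fewer cells of a type and less RNA per cell cannot be told apart in any of these values.

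**Figure D1:**
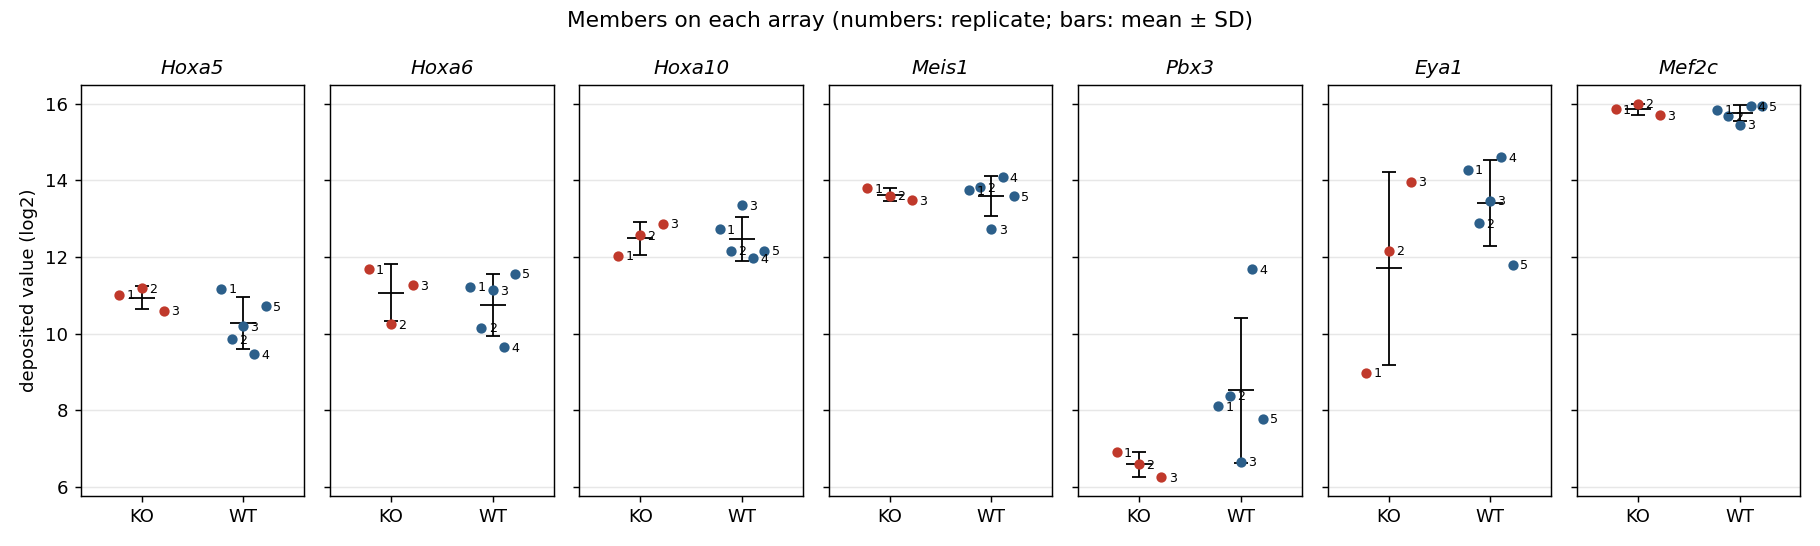
Deposited log2 value of each member on each array, with KO in red, WT in blue, replicate numbers beside the points and the mean ± SD as black bars. Pbx3 runs from 6.26 to 11.68 and Eya1 from 8.98 to 14.60, while Mef2c stays between 15.45 and 16.00. Heights are not to be compared between genes, because each row has its own probes.

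Among the 3 HOXA members with a row, Hoxa5 had the largest difference. It was 11.01, 11.19 and 10.60 on KO arrays 1 to 3 and 11.17, 9.85, 10.19, 9.46 and 10.72 on WT arrays 1 to 5. The KO arrays lay near the top of the WT range, and WT arrays 1 and 5 fell among them. The KO mean was 10.93 ± 0.30 (SD, n = 3) and the WT mean 10.28 ± 0.68 (SD, n = 5), a log2 difference of 0.66 with a standard error of 0.39 and a 95% interval of -0.22 to 1.53. Permuting the labels exactly, over 56 splits and two-sided, gave p = 0.196, where the smallest possible is 0.0179. The difference stayed between 0.45 and 0.88 with any 1 array left out.

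Hoxa6, the neighbour of Hoxa5 in the cluster, was 11.68, 10.24 and 11.27 in KO and 11.22, 10.15, 11.13, 9.65 and 11.56 in WT. Its low arrays were KO array 2 and WT arrays 2 and 4, so each group held high and low arrays. The difference of 0.32 had a 95% interval of -0.80 to 1.44 and an exact permutation p of 0.50. Without KO array 1 it was 0.01 and without WT array 4 it was 0.04.

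Hoxa10, a posterior HOX gene of immature progenitors, was 12.03, 12.57 and 12.87 in KO and 12.73, 12.16, 13.35, 11.97 and 12.16 in WT. Its highest value was on WT array 3, and the KO arrays all fell inside the WT range. The KO mean of 12.49 ± 0.42 (SD, n = 3) and the WT mean of 12.47 ± 0.57 (SD, n = 5) differed by 0.02, with a 95% interval of -0.78 to 0.82 and an exact permutation p of 0.911. Without WT array 3 the difference was 0.24.

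Meis1, the TALE gene that cooperates with HOX genes in leukaemia, was 13.80, 13.60 and 13.48 in KO and 13.74, 13.82, 12.73, 14.08 and 13.59 in WT. The KO arrays fell inside the WT range, and WT array 3 was the lowest of all. The means of 13.63 ± 0.17 (SD, n = 3) and 13.59 ± 0.52 (SD, n = 5) differed by 0.03, with a 95% interval of -0.66 to 0.73 and an exact permutation p of 0.946. Without WT array 3 the WT mean was 13.81 ± 0.20 (SD, n = 4), and the difference turned to -0.18 with a standard error of 0.18. Meis1 is also active in megakaryocyte progenitors, and megakaryocyte and platelet genes had a mean level of 9.48 on WT array 1 against 5.64 to 6.60 on the other arrays. Meis1 was 13.74 on WT array 1, against 13.82, 12.73, 14.08 and 13.59 on WT arrays 2 to 5. The part of megakaryocyte cells in the Meis1 values was not tested.

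Pbx3, which encodes a PBX partner of HOXA9 and MEIS1, had the largest difference of the group. It was 6.91, 6.59 and 6.26 in KO and 8.10, 8.38, 6.66, 11.68 and 7.78 in WT. WT array 4 was far above the rest, the KO arrays lay at the bottom, and WT array 3 was the WT array among them. The KO mean was 6.59 ± 0.33 (SD, n = 3) and the WT mean 8.52 ± 1.88 (SD, n = 5), so that the WT mean was 3.82-fold higher. The log2 difference of -1.93 had a standard error of 0.94 and a 95% interval of -4.06 to 0.19. In the exact permutation test p was 0.0893, and in limma the unadjusted p was 0.0694.

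The size of the Pbx3 difference depended on single WT arrays, and it stayed between -2.40 and -1.14 with any 1 array left out. Without WT array 4 the difference was -1.14 with a standard error of 0.42 and an adjusted p of 0.996 in limma. Without WT array 3 it was -2.40, the 3 KO arrays lay below the remaining 4 WT arrays, and p was 0.0571 in the exact permutation test over 35 splits. In that comparison 5.53% of the genes tested had groups that did not overlap, and 1 of the 7 members did. Limma gave Pbx3 an unadjusted p of 0.0238 there, as 4.65% of all genes were under 0.05, and an adjusted p of 0.987.

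Eya1 varied most. It was 8.98, 12.17 and 13.96 in KO and 14.28, 12.88, 13.47, 14.60 and 11.80 in WT. KO array 1 was far below all others, while KO arrays 2 and 3 fell inside the WT range. The means of 11.70 ± 2.52 (SD, n = 3) and 13.41 ± 1.12 (SD, n = 5) differed by -1.71, with a 95% interval of -4.06 to 0.65 and an exact permutation p of 0.232. Without KO array 1 the difference was -0.34, and without KO array 3 it was -2.83.

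Mef2c was the steadiest member. Its values were 15.86, 16.00 and 15.70 in KO and 15.84, 15.67, 15.45, 15.94 and 15.93 in WT. The 8 arrays spanned 0.55 log2 units, or 1.47-fold. The difference of 0.09 had a 95% interval of -0.37 to 0.54 and an exact permutation p of 0.554. Without WT array 3 or without KO array 2 it was 0.01.

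**Figure D2:**
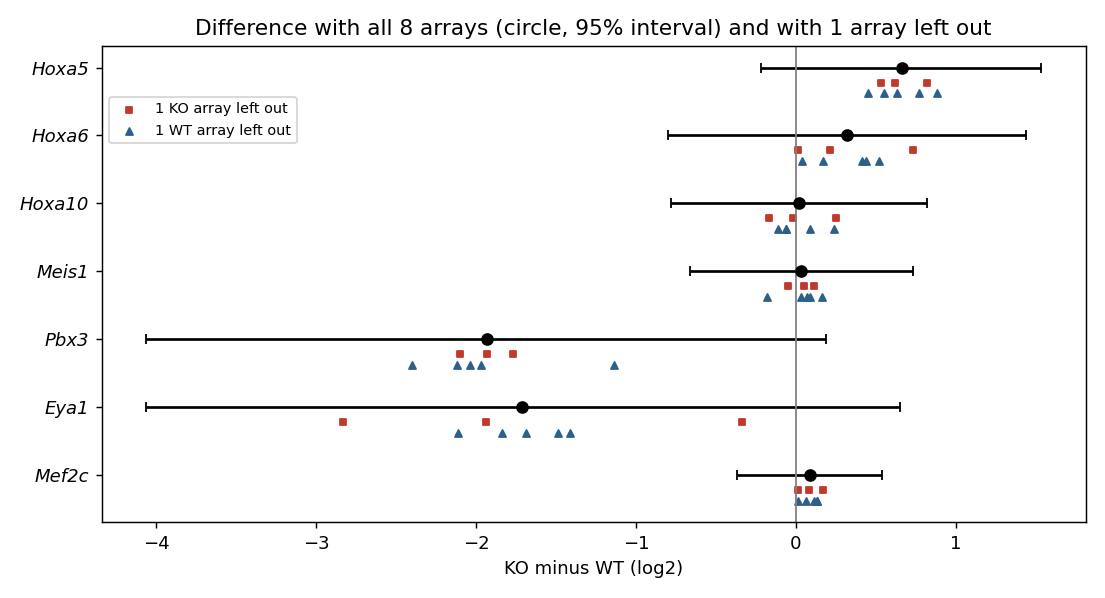
KO minus WT log2 difference of each member with all 8 arrays (black circle, with limma's 95% interval as bar) and with each KO array (red squares) or WT array (blue triangles) left out. All 7 intervals include 0, and the Eya1 difference runs from -2.83 to -0.34 depending on the array left out.

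The members differed widely in how much they varied between arrays. By the SD over the 8 arrays, Eya1 stood at percentile 99.7 and Pbx3 at 99.6 of the 9920 genes tested, while Mef2c stood at 6.62. Between their lowest and highest arrays the levels of Eya1 differed 49.2-fold and those of Pbx3 42.8-fold. The ranges were 3.32-fold for Hoxa5, 4.08-fold for Hoxa6, 2.60-fold for Hoxa10 and 2.56-fold for Meis1, whose SDs lay at percentiles 75, 83.3, 57.1 and 43.8.

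How the members vary together was described over the 8 arrays for all 21 pairs, of which 9 had a positive and 12 a negative Pearson correlation. After Benjamini-Hochberg adjustment 0 pairs were under 0.05, by Pearson's or by Spearman's coefficient, and 2 pairs were under 0.05 unadjusted by each. Hoxa10 and Meis1 ran in opposite directions, with r = -0.87 (exact permutation p = 0.00379, adjusted 0.0797) and rho = -0.88 (exact permutation p = 0.00724, adjusted 0.152). The correlation was -0.55 without KO array 3 and WT array 3, the arrays farthest from the median of Hoxa10, and -0.71 without WT array 3 alone.

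Meis1 and its partner Pbx3 had r = 0.62 (exact permutation p = 0.137, adjusted 0.359) and rho = 0.79 (exact permutation p = 0.0279, adjusted 0.293). The r was 0.64 without WT arrays 3 and 4 and 0.88 without WT array 3. Hoxa5 and Pbx3 had r = -0.68 (exact permutation p = 0.0469, adjusted 0.285) and rho = -0.48 (exact permutation p = 0.243, adjusted 0.628). That r was 0.37 without WT arrays 2 and 4, the arrays farthest from the median of Hoxa5. Leaving out the extreme arrays of a gene narrows its range. All these r values pool KO and WT arrays, so a difference between the groups enters them. The cluster neighbours Hoxa5 and Hoxa6 had r = 0.62 (exact permutation p = 0.0973, adjusted 0.341) and rho = 0.50 (exact permutation p = 0.216, adjusted 0.628). Without WT arrays 2 and 4 their r was -0.26. Meis1 and Mef2c had r = 0.73 (exact permutation p = 0.0510, adjusted 0.285) and rho = 0.36 (exact permutation p = 0.389, adjusted 0.681). That r was 0.15 without WT array 3 and -0.15 without WT arrays 3 and 4.

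**Figure D3:**
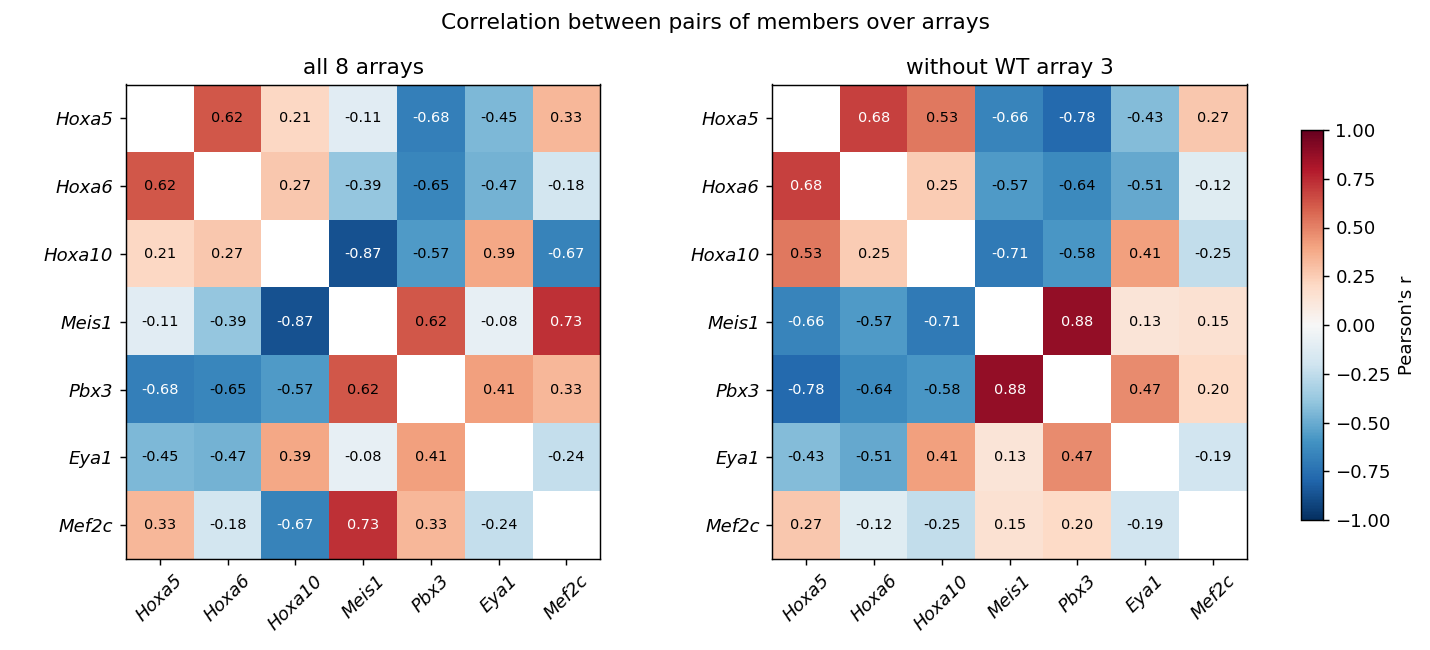
Pearson correlation of each pair of members over all 8 arrays (left) and over 7 arrays without WT array 3 (right), coloured from -1 in blue to 1 in red. Hoxa10 and Meis1 stand at -0.87 and -0.71, and Meis1 and Mef2c fall from 0.73 to 0.15.

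Genes whose array pattern was most like that of a member were found by the root mean square (RMS) difference between mean-centred log2 values over the 8 arrays. Here and for the members below, a high or low array shared with the member follows from that choice and is no separate result. For Eya1 the closest were Mmp8, a collagenase gene of neutrophil granules, with an RMS difference of 0.93, Xlr4c with 0.96 and Lat2, an adaptor gene, with 1.0. Mmp8 was 6.55, 8.51 and 10.79 in KO and 8.96, 9.47, 10.04, 9.40 and 8.23 in WT, so KO array 1 was its lowest array too. For Pbx3 the closest were Txndc5 with 0.93, the integrin gene Itgb5 with 0.94 and Adgrl4 with 0.97, and their values on WT array 4, 10.21, 9.15 and 13.10, were their highest. These RMS differences are large, since the members' own SDs were 1.82 and 1.75.

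Meis1 was closest to Rbm27 with 0.08, Nat2 with 0.08 and the integrin gene Itgam with 0.11, and WT array 3 was the lowest array of all 3. Hoxa10 was closest to Acd, Sms and Atp5l, each with 0.18 and each highest on WT array 3. Hoxa5 was closest to Rasgef1b with 0.17, Slc39a1 with 0.27 and Dnajc2 with 0.28. Rasgef1b was dim, at 3.76 to 5.57, where the arrays' median rows lay between 5.26 and 5.51. The nearest to Hoxa6 were Zfp825 with 0.34, Abcc2 with 0.36 and Ankle1 with 0.36. Fermt3 with 0.06, Fzd5 with 0.07 and Eif3c with 0.08 were nearest to Mef2c.

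Markers of other cells are given as values beside Eya1 and Pbx3, with which they moved on some arrays only. The 10 maturing neutrophil genes, Mmp8 among them, had a mean level of 13.06, 13.69 and 14.61 on KO arrays 1 to 3 and of 13.55 to 14.38 in WT, with 9 of the 10 above the median row on all 8 arrays and 0 below it on all. KO array 1 was lowest and KO array 3 highest in the mean of this list, the same order as Eya1 within KO. KO array 1 was also lowest in the mean of the GMP and primary granule genes, at 13.95, and of 9 stem cell genes, at 5.29. Both of these lists hold Cd34, which was 5.63 on KO array 1 and 7.24 to 10.94 on the other arrays. These 2 means are therefore not independent, and means without Cd34 were not computed. Members of the neutrophil list differed in their order, and Mmp8 is the gene picked above for its likeness to Eya1. Retnlg was 4.65, 7.48 and 9.74 on KO arrays 1 to 3, while Ngp was 18.05, 17.91 and 18.16 and Camp 17.71, 17.45 and 17.80. On WT arrays 1 and 4, where Eya1 was highest, the list stood at 13.77 and 13.79. For Pbx3, 10 of 11 mast cell, basophil and eosinophil genes had a row, and their mean level was 7.26 to 7.31 in KO and 7.39 to 8.22 in WT. It was highest on WT array 4, at 8.22, and next on WT array 3, at 7.96, where Pbx3 was low. The eosinophil granule gene Prg2 was 12.84 on WT array 4 and 11.98 on WT array 3, against 6.22 to 8.64 on the other arrays, and Prg3 was 12.44 and 11.61 there, against 7.03 to 8.52. Other genes of the list were not high on WT array 4. Mcpt8 was 8.21 there, its lowest WT value, Ms4a2 was 5.97, against 5.60 to 8.44 on the other WT arrays, and Cpa3 was 5.97, against 5.53 to 7.59. Epx, Fcer1a and Cma1 were below the median row on all 8. The part of these cells in the Eya1 and Pbx3 values was not tested.

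**Figure D4:**
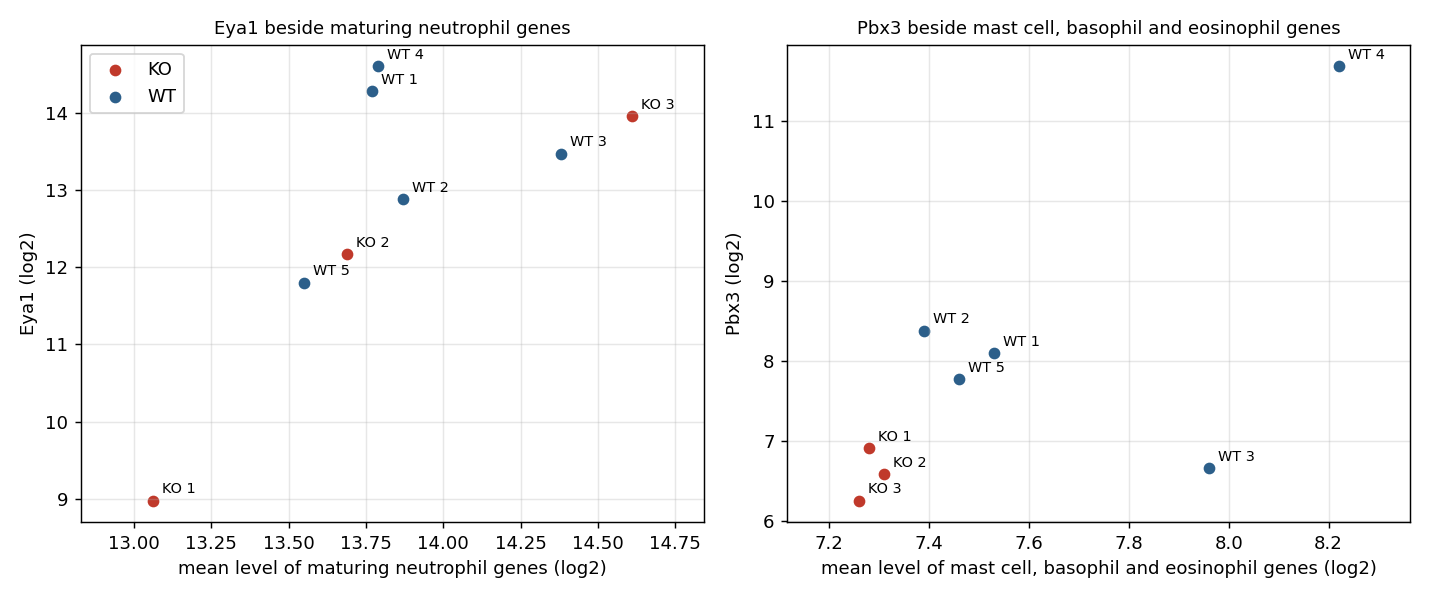
Level of Eya1 against the mean level of 10 maturing neutrophil genes (left) and level of Pbx3 against the mean level of 10 mast cell, basophil and eosinophil genes (right), in log2, 1 point per array with KO in red and WT in blue. KO array 1 is lowest for Eya1 and for the neutrophil genes, and WT array 3 has a list level of 7.96 with Pbx3 at 6.66.

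Other HOX genes were mostly dim. Of 35 listed besides the members, 31 had a row and 5 were bright enough to test, and 24 were below the median row on all 8 arrays. All of the 9 HOXC and 7 HOXD genes in the table were among the latter, as was Evx1, a homeobox gene beside the HOXA cluster that the list includes. In the HOXA cluster 8 genes had a row with the members counted, and 6 were tested. The tested HOXA genes beyond the members were Hoxa2, Hoxa3 and Hoxa4, and Hoxa13 was below the median row on all arrays. Hoxa11 was above it on WT array 3 only, at 6.15, against 4.29 to 4.95 elsewhere. Hoxb9, Hoxc9 and Hoxd9, paralogs of Hoxa9, lay between 3.11 and 3.62, between 4.23 and 5.21 and between 2.80 and 3.28, below the median row throughout.

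None of the 5 tested HOX genes outside the group passed, with 2 above 0, 3 below and a median of -0.39, which was -0.19 without WT array 3. Hoxa2 was 6.66, 6.62 and 7.44 in KO and 9.02, 7.25, 9.09, 6.62 and 7.42 in WT, a difference of -0.97 with a standard error of 0.59. WT arrays 1 and 3 were its high arrays, and without WT array 3 the difference was -0.67. Hoxa3 differed by -0.48, and by 0.01 without KO array 3. Hoxa4 differed by -0.39, Hoxb7 by 0.24 and Hoxb3 by 0.05. Without WT array 3 Hoxa4 was at -0.19, Hoxb7 at 0.34 and Hoxb3 at 0.20.

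Among 9 further TALE genes, 8 had a row, 4 were tested and 0 passed, with 3 above 0 and a median of 0.21. Pbx2, the paralog of Pbx3, was 12.63, 12.21 and 12.61 in KO and 12.30, 12.25, 12.00, 12.15 and 12.07 in WT. Its KO arrays were higher on average and KO array 2 fell inside the WT range, with a difference of 0.33, a standard error of 0.19 and an exact permutation p of 0.0536. Pbx2 and Pbx3 thus had differences of opposite sign, neither of which passed. Pknox1, a gene related to Meis1, differed by 0.31 and by -0.06 without WT array 3. The repressor gene Tgif1 differed by -0.37 and by 0.10 without that array, and Tgif2 by 0.11 and by 0.32 without that array. Meis2, Meis3 and Pbx4 were below the median row on all 8 arrays.

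Of the EYA genes and their partners of the sine oculis and dachshund families, which act together in development, 10 of 11 had a row and 2 were tested. Eya3, the paralog of Eya1, was 10.90, 10.86 and 10.66 in KO and 10.87, 10.98, 10.30, 11.03 and 10.59 in WT. It spanned far less than Eya1, with a difference of 0.05 that was -0.06 without WT array 3. Dach1, a corepressor gene, differed by -0.13, by 0.03 without WT array 4 and by -0.30 without WT array 3. Eya2 and Eya4 were below the median row on all 8 arrays, as were Six2, Six3, Six5, Six6 and Dach2.

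Another list held 7 genes, of the MEF2 family or of the class IIa histone deacetylases, and it is the deacetylases that repress MEF2 targets. Of the 7, 6 had a row, 5 were tested and 0 passed, with 1 above 0 and a median of -0.21. Mef2a, the paralog of Mef2c, was 12.32, 12.43 and 12.60 in KO and 12.62, 12.67, 12.49, 12.74 and 12.76 in WT. KO array 3 lay above WT array 3 and below the other WT arrays, for a difference of -0.21 and an exact permutation p of 0.0714. Without WT array 3 the Mef2a difference was -0.25 and the groups did not overlap, with an exact permutation p of 0.0286. In that comparison 5.53% of all genes tested had groups that did not overlap. Hdac4 differed by -0.47, Mef2d by -0.37, Hdac7 by -0.12 and Hdac9 by 0.44. Without WT array 3 Mef2d was at -0.06, Hdac9 at 0.29, Hdac4 at -0.33 and Hdac7 at -0.19. Without KO array 3 Hdac9 was at 0.03. Mef2b was below the median row on all arrays.

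Target genes of MLL fusions and of HOXA9 and MEIS1 formed the largest list, with 24 of 26 in the table and 21 tested. Of these 0 passed over all genes, 3 had an unadjusted p under 0.05, where 2.84% of all genes did, 12 were above 0 and 9 below, and the median was 0.01. Without WT array 3 the median was -0.16, with 6 of 20 above 0, where the median of all genes was 0. Groups did not overlap for 1 (3.09% of all genes), and for 2 without WT array 3 (5.53% of all genes). The 1 was the apoptosis inhibitor gene Bcl2, at 7.42, 8.04 and 8.37 in KO and 9.10, 9.21, 10.03, 9.51 and 9.56 in WT. The other 3 with the smallest p were Tcf4 at -1.10, the progenitor marker gene Cd34 at -2.0 and the chromatin organiser gene Satb1 at -1.04. Satb1 was at -0.55 without KO array 1. Runx1 was the gene besides Bcl2 whose groups did not overlap without WT array 3. It differed by -0.28 with all arrays and by -0.54 without that one, there with an adjusted p of 0.987 in limma. Myb and Cdk6, targets needed for growth of this leukaemia, differed by 0.17 and 0.06, and Flt3 was below the median row on all 8 arrays.

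The cofactors through which MLL fusions act had 11 of 13 genes in the table, 10 tested and 0 passing, with 6 above 0 and a median of 0.24 that was 0.01 without WT array 3. Aff1, a subunit gene of the super elongation complex, was 15.36, 15.09 and 15.34 in KO and 15.48 to 15.58 in WT. The groups did not overlap, though the difference was -0.28 with a standard error of 0.17. Mllt1, encoding the elongation factor ENL, was the other gene of this list without overlap, at 11.14, 11.15 and 11.03 in KO against 11.20 to 12.05 in WT. The 2 of 10 genes stand beside 3.09% of all genes. Mllt3, whose human counterpart supplies AF9 to the fusion, differed by 0.35 and by 0.15 without KO array 2, and Psip1 by 0.53 and by 0.24 without WT array 3.

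**Figure D5:**
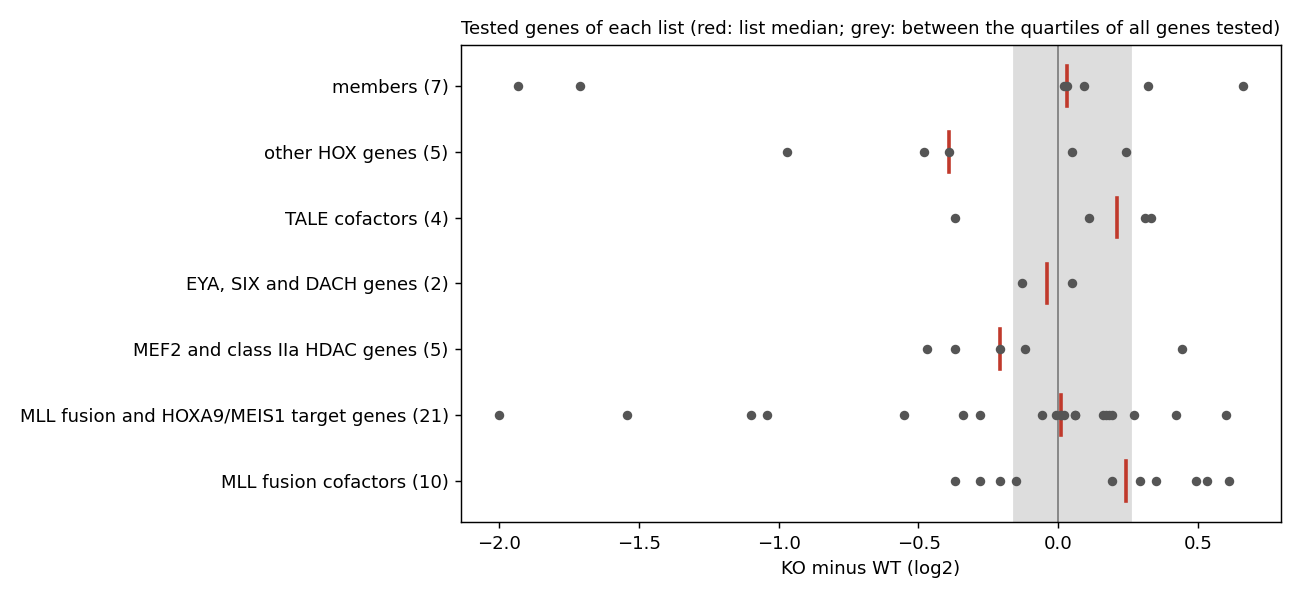
KO minus WT log2 difference of each tested gene, by list with the number tested in brackets. Red bars give list medians and the grey band the quartiles of all 9920 genes tested, -0.16 and 0.26. Pbx3 and Eya1 are the 2 lowest points of the members' row.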

How the data were processed

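The deposited table holds log2 values for 28846 rows on 8 arrays. Per the labels' protocols, RNA was prepared with a kit for small samples and carried a biotin label. Software, normalization between arrays and build are not stated in these sources. The submitters' design text names a mouse transcriptome array, while the row identifiers match the annotation of another Affymetrix array, so which was used is open. Of 22206 transcript rows, 19572 had 1 symbol.

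Rows with 1 symbol that exceeded the array's median row on at least 3 arrays were tested, keeping for each symbol the row of highest mean. KO was compared with WT by limma 3.58.1 (two-sided, in R 4.3.3), with Benjamini-Hochberg adjustment over 9920 genes and a threshold of 0.05. The alternatives were no filter, a filter at the 60th percentile on 5 arrays, quantile or median scaling, values below the 25th percentile raised to it, eBayes with trend, array weights, the replicate block, another row per symbol and each array left out. Scripts were tested on simulated data. Figures were drawn with matplotlib 3.10.9. No 2 arrays were duplicates (smallest root mean square difference 0.574).

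The members and lists were chosen with earlier results of these data known. Named genes are all members, closest paralogs, up to 4 genes per list with the smallest unadjusted p and the 3 genes most like each member. Hdac7, Myb, Cdk6, Flt3, Runx1, Hoxb3, Hoxd9, Evx1 and the EYA partners below the median row were named outside this rule, after their values were seen.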

Additional observations from a re-analysis of the deposited data

Results flagged for a closer look

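In the 5 WT arrays, the 54 tested genes of the group and of the pathway lists were searched for an array that stood away from the other 4, by its gap to the nearest of them over the whole range. It was found for 5 of the 54, where chance gives about 1 in 20 for a single gene. Each was low on WT array 3, the array that stood apart over all genes. The share over all genes tested was not computed, and genes on the same array are not independent. No excess in these lists is therefore shown. On WT array 3 Pknox1 was 6.99, against 8.51 to 9.08 on the other WT arrays, and Hdac9 was 6.46, against 7.13 to 7.26. Runx1 was 11.52, against at least 12.64, Erg was 11.85, against 13.17 to 13.46, and Syk was 10.20, against 13.27 to 13.77. No member was among them.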

How the results depend on the processing

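Under the 17 alternatives tried, 0 genes and 0 members were called, and the members' median difference ranged from 0.01 to 0.20. Hoxa5, Hoxa6, Pbx3, Eya1 and Mef2c kept their direction in all 17, though Hoxa6 and Mef2c came as low as 0.01. No filter, the stricter filter, the raised floor, eBayes with trend and another row per symbol left the member differences unchanged. A direction kept under those settings adds no support. Hoxa10 reversed in 6, to -0.25 with the replicate number as a replicate block and within a range of -0.17 to 0.25 with 1 array left out. Meis1 reversed in 3, to -0.14 with array weights and within -0.18 to 0.16 with 1 array left out. For both, the cause was not tested. Same-numbered KO and WT arrays had deviations that correlated at 0.018, -0.018 and 0.137, and 1 of the 3 KO arrays correlated best with the WT array of its own number. The labels do not say whether same-numbered arrays were paired, and 3 correlations cannot settle it. With the replicate block 333 genes were under an unadjusted p of 0.05, against 282 without. The members' adjusted p ranged from 0.936 to 1. The number of arrays limits these results: the interval of the Pbx3 difference spans -4.06 to 0.19.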
